A study of Mus musculus with 10 samples.

Results

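The genes described here are 9 transcription factor genes that mark position along the gut: the posterior Hox genes Hoxb13, Hoxd13, Hoxa13 and Hoxd10, the caudal-type genes Cdx1 and Cdx2, the GATA factor genes Gata4 and Gata6, and Pdx1. Every probe set that carried exactly 1 gene symbol, and that symbol among the 9, was taken, which gave 15 of 45037 probe sets on the array and 9 of 18193 named genes. Pooled RNA came from male mice of the outbred ICR stock, aged 28 months, that had eaten the AIN-93 diet alone (control, 9 mice) or the same diet with 1 to 2% LB81 yogurt (10 mice) from 8 months of age. RNA of each mouse was pooled in equal amounts, so each of 5 tissues (jejunum, ileum, distal colon, liver and spleen) had 1 array per diet, 10 arrays in all. No transgene or mutation was involved, and the same 2 groups of mice gave all tissues. The study's title names the comparison of yogurt-fed with control mice as its purpose. Differences between tissues are described here as well, since position is what these genes mark.

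Hox genes lie in clusters named A to D, and genes of high paralog number at 1 end of each cluster are active at the posterior end of the body, including the hindgut. Cdx1 and Cdx2 encode homeodomain proteins that set and keep the intestinal state of the epithelium, and Cdx2 holds back stomach genes there. Gata4 is known as a factor of the proximal small intestine, where it keeps ileal genes off, while Gata6 acts along the whole gut. Pdx1 is required for the pancreas and is active in the duodenum and the antrum of the stomach. Pdx1 and Cdx2 belong, with Gsx1, to the ParaHox cluster, a sister of the Hox clusters.

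Promoter sequences were present in the RefSeq table (mouse build GRCm38.p6) for 5 of the members: Hoxd13, Hoxd10, Hoxa13, Pdx1 and Cdx2. Printed are 2 pairs of genes that each share a cluster, Hoxd13 and Hoxd10 of cluster D, which were both bright in distal colon alone, and Pdx1 and Cdx2, which had different distributions along the gut. Each is the 250 bases before the gene's start, 5′ to 3′ on the gene's strand, at chr2:74667975-74668224 (+) for Hoxd13, chr2:74691641-74691890 (+) for Hoxd10, chr5:147269847-147270096 (+) for Pdx1 and chr5:147307250-147307499 (-) for Cdx2. Capitals mark the motifs TTTAT (the core bound by Cdx and posterior Hox proteins), GATAA (the GATA core) and CACGTG (an E-box), searched on both strands.
Hoxd13: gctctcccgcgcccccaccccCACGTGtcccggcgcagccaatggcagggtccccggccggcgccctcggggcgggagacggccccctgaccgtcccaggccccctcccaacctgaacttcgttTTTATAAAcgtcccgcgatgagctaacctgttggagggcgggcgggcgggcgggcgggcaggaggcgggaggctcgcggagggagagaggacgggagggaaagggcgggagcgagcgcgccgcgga
Hoxd10: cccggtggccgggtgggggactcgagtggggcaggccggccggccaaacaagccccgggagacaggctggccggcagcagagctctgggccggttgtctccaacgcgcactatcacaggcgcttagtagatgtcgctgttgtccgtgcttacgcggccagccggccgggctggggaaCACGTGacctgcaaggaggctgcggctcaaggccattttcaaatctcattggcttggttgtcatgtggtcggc
Pdx1: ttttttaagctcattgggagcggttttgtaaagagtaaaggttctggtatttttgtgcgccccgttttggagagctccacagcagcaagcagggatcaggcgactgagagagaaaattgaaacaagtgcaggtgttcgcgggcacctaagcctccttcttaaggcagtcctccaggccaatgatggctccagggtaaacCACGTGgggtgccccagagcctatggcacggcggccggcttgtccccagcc
Cdx2: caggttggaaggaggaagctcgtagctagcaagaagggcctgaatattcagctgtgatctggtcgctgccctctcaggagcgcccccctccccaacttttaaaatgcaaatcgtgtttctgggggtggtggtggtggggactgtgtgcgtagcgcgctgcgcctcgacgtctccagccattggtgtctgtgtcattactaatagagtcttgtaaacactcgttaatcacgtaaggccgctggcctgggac
TTTAT was found in the Hoxd13 window only, on both strands in overlapping positions 126 to 119 bases before the start, and in 37.3% of all 32851 windows of this length. GATAA was found in none of the 5 windows and in 22.6% of all windows. CACGTG was found in 3 of the 5, at 229 to 224 bases before the start of Hoxd13, 73 to 68 before Hoxd10 and 51 to 46 before Pdx1, against 6.02% of all windows. The E-box was added to the search after these sequences had been seen. The Hoxa13 window, not printed, held none of these motifs. A match describes the sequence and is not a binding site measured here. No protein-coding gene of the annotation lies between Pdx1 and Cdx2, and Hoxd12 and Hoxd11 lie between Hoxd13 and Hoxd10.

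Levels are log2 expression values per probe set, so a difference of 1 is a 2-fold difference. The median of each array, 5.42 to 5.49, served as a floor: a probe set below it was treated as not above the dim part of the array. A fitted difference from a tissue below the floor is given as such and is no bound on the fold. The 2 arrays of a tissue had Spearman correlations of 0.992 to 0.994 over all probe sets, and the correlation between tissues was 0.858 to 0.978. Tissue labels were checked against markers. The list of 5 jejunal genes (such as Lct, lactase) was called higher in jejunum than ileum in 5 of 5, all 3 ileal genes (Slc10a2, Fabp6 and Fgf15) were higher in ileum, and 3 of 4 colonic genes were higher in distal colon than in ileum. The jejunum arrays also carried genes of other organs: all 11 exocrine pancreas genes and 5 of 7 stomach genes were called higher there than in ileum. Of 4 prostate and urogenital genes, Pbsn, Svs2 and Svs4 lay below the floor on all arrays and Upk2 was between 6.15 and 6.95 in all tissues. In bulk tissue, fewer cells of a type and less RNA per cell cannot be told apart.

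The tissue differences were fitted with limma over all 10 arrays with tissue and diet as terms, and a probe set was called when its Benjamini-Hochberg adjusted p, over 26905 probe sets, was under 0.05 and its difference at least 1 on the log2 scale. Of the 15 member probe sets, 14 were above the floor on at least 2 arrays and were tested. Gata4 had a further probe set, 1418864_at, that was above it on 1 array only. With 1 pool per diet in each tissue, n = 2 arrays per tissue, and the SE and p-values measure how far tissue differences varied between the 2 pools, not between mice. Each SE was estimated over all 10 arrays (4 residual degrees of freedom). It also borrowed from the spread of other probe sets (5.907 prior degrees of freedom). It is therefore not the observed spread of the 2 tissues compared.

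**Figure D1:**
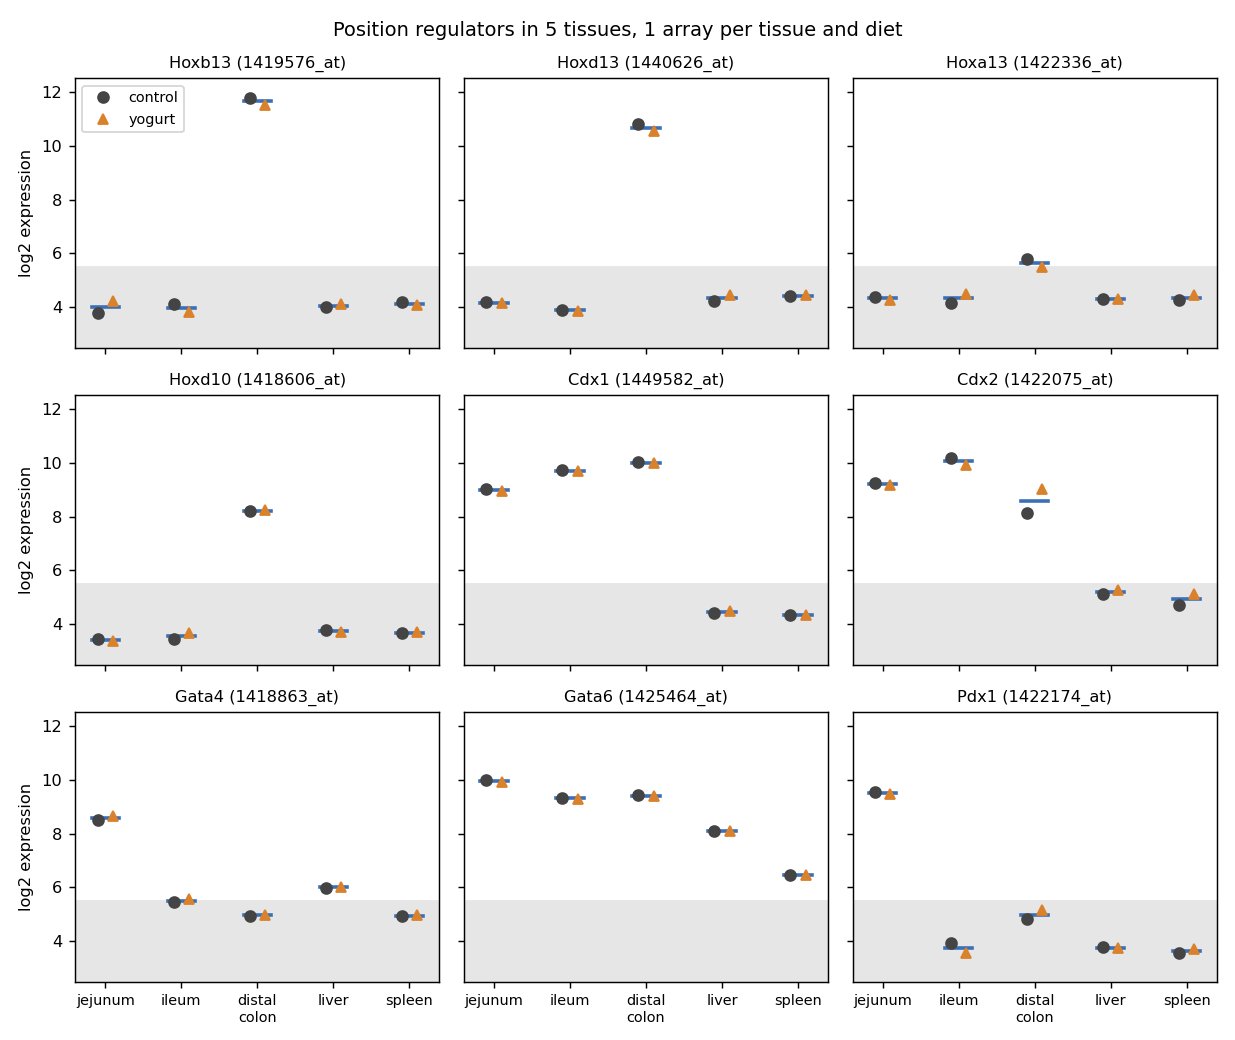
Log2 expression (y axis) of each member's brightest probe set in 5 tissues (x axis), with 1 control array (dark circle) and 1 yogurt array (orange triangle) per tissue, their mean as a blue bar, and the range up to the highest floor in grey. The 4 Hox genes rose above the floor in distal colon alone, Cdx1 and Cdx2 in the 3 gut segments, Gata6 in all 5 tissues, and Pdx1 in jejunum alone.

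The 4 posterior Hox genes were above the floor in distal colon and below it in the other 4 tissues. Hoxb13, Hoxd13 and Hoxd10 were bright there, and Hoxa13 lay close to the floor. The 5 probe sets of these genes entered the test through distal colon alone. The direction of their colon differences was therefore set in advance, and the p-values do not test it. Hoxb13, the last gene of cluster B, was 11.78 and 11.52 in distal colon (control and yogurt arrays). It was 3.80 and 4.22 in jejunum, 4.11 and 3.83 in ileum, 4.0 and 4.12 in liver, and 4.18 and 4.08 in spleen. The colon arrays stood far above all the others, which overlapped among themselves. The distal colon exceeded ileum by 7.68 ± 0.17 (SE, n = 2 arrays per tissue; limma, adjusted p = 4.6e-10), and against the floor it was at least 72.2-fold higher.

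Hoxd13, the gene at the posterior end of cluster D, was 10.79 and 10.55 in distal colon by its brighter probe set, 1440626_at, and between 3.88 and 4.47 on the other 8 arrays. Distal colon exceeded ileum by 6.78 ± 0.13 (SE, n = 2; limma, adjusted p = 1.4e-10), at least 36.6-fold against the floor. Its other probe set, 1422239_at, was 6.07 and 5.86 in distal colon and 4.53 to 5.15 elsewhere, a colon excess over ileum of 1.26 ± 0.15 (SE, n = 2; limma, adjusted p = 6.9e-05). The probe sets of Hoxd13 therefore had the same order of colon over other tissues but very different sizes.

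Hoxd10, which lies further inside cluster D, was 8.21 and 8.24 in distal colon. It was 3.44 and 3.38 in jejunum, 3.45 and 3.69 in ileum, 3.78 and 3.70 in liver, and 3.66 and 3.71 in spleen. The colon excess over ileum was 4.65 ± 0.13 (SE, n = 2; limma, adjusted p = 2e-09), at least 6.72-fold against the floor. Hoxa13, the last gene of cluster A, was the dimmest of the 4 in the colon, at 5.81 and 5.5, and 4.16 to 4.5 elsewhere. Its colon excess over ileum was 1.32 ± 0.16 (SE, n = 2; limma, adjusted p = 7.6e-05), but the colon arrays lay so close to the floor that the bound was only at least 1.13-fold, and with dim values raised to the floor the call was lost (difference 0.18, adjusted p = 0.13). The same treatment left Hoxd13 1422239_at a difference of 0.49, under the 2-fold threshold. For all 5 Hox probe sets no call was made between 2 tissues other than the colon. In the order of levels, steps between neighbouring tissues other than colon were at most 0.38, for Hoxd13 1422239_at between liver and ileum.

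Cdx1 and Cdx2 were bright in the 3 gut segments and below the floor in liver and spleen. Cdx1 was 9.03 and 8.96 in jejunum, 9.73 and 9.69 in ileum, and 10.03 and 9.98 in distal colon, against 4.41 and 4.49 in liver and 4.36 on both spleen arrays. The 3 segments did not overlap, and levels rose in that order along the gut. Distal colon exceeded jejunum by 1.01 ± 0.09 (SE, n = 2; limma, adjusted p = 5e-06), at the edge of the 2-fold threshold. The call was lost under quantile normalization (0.97), without the jejunum yogurt array (0.97) and without the colon control array (0.99). Ileum exceeded jejunum by 0.72 ± 0.09 (adjusted p = 0.00015) and distal colon exceeded ileum by 0.29 ± 0.09 (adjusted p = 0.016), both with limma and under 2-fold.

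Cdx2 had a different order, with ileum the highest. Its brighter probe set, 1422075_at, was 9.23 and 9.17 in jejunum, 10.19 and 9.92 in ileum, and 8.13 and 9.04 in distal colon. Liver was 5.13 and 5.27 and spleen 4.72 and 5.13, all below the floor. The 2 colon arrays were 0.91 apart, the widest pair among the gut values of this probe set, and still did not overlap with ileum or jejunum. The difference of distal colon minus ileum was -1.46 ± 0.22 (SE, n = 2; limma, adjusted p = 0.00034), and ileum exceeded jejunum by 0.85 ± 0.22 (adjusted p = 0.014, under 2-fold). The other probe set, 1422074_at, was 7.51 and 7.47 in jejunum, 8.34 and 8.21 in ileum and 6.30 and 6.70 in distal colon. By this probe set distal colon minus ileum was -1.78 ± 0.14 (SE, n = 2; limma, adjusted p = 3.4e-06), so both probe sets gave the same order. Refits that each left out 1 array gave -1.89 to -1.04 for 1422075_at, called in each.

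Of 8 matched intestinal genes known to depend on Cdx2, 4 were lower in distal colon than in ileum and none was higher. Their median difference was -0.97 against 0.11 over all 13604 genes tested, of which 4.28% were lower and 5.52% higher. The 4 lower genes were Isx, a homeobox gene of intestinal retinoid handling (-3.69), Vil1, the microvillus protein villin (-1.59), Krt20, a keratin of mature enterocytes (-1.50), and Cdh17, an intestinal cadherin (-1.12). Cdx1 is itself in that list. Of 8 general epithelial genes 2 were lower in distal colon than in ileum, Krt20 and Vil1, which stand in both lists.

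Gata4 was a jejunal gene among the gut segments. By probe set 1418863_at it was 8.52 and 8.67 in jejunum, 5.45 and 5.58 in ileum, 4.95 and 4.99 in distal colon, 5.98 and 6.02 in liver, and 4.93 and 4.98 in spleen. Jejunum exceeded ileum by 3.08 ± 0.10 (SE, n = 2; limma, adjusted p = 1.5e-08), or 8.46-fold, and distal colon by at least 8.63-fold. Liver came next, 2.59 below jejunum and 0.49 above ileum (limma, adjusted p = 0.0015). Ileum lay at the floor, above it on the yogurt array only, so the 8.46-fold is approximate. Distal colon and spleen, both below the floor, were 0.02 apart. The probe set that was not tested, 1418864_at, was 5.32 and 5.64 in jejunum and 4.05 to 4.47 elsewhere, so its highest tissue was the same.

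Gata6 was above the floor in all 5 tissues. By probe set 1425464_at it was 10.00 and 9.90 in jejunum, 9.34 and 9.28 in ileum, 9.42 and 9.40 in distal colon, 8.09 and 8.10 in liver, and 6.47 and 6.48 in spleen. Jejunum exceeded ileum by 0.64 ± 0.07 (SE, n = 2; limma, adjusted p = 8.9e-05) and distal colon by 0.54 ± 0.07 (adjusted p = 0.0001), neither reaching 2-fold. Distal colon and ileum differed by 0.10, with a 95% interval of -0.06 to 0.26 (limma, adjusted p = 0.26). The drop from ileum to liver was 1.22 and from liver to spleen 1.62, both called. Probe set 1425463_at gave the same order at lower levels (5.38 to 8.12), and 1443081_at lay near the floor at 4.82 to 5.79.

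Pdx1 was above the floor in the jejunum arrays alone. Its probe sets entered the test through these arrays, so the direction of its jejunum differences was set in advance and the p-values do not test it. The labels do not say where along the jejunum the piece was taken, and whether it held duodenum or parts of neighbouring organs was not tested. By probe set 1422174_at it was 9.55 and 9.46 in jejunum, 3.92 and 3.57 in ileum, 4.83 and 5.15 in distal colon, 3.79 and 3.76 in liver, and 3.55 and 3.72 in spleen. Jejunum exceeded ileum by 5.76 ± 0.16 (SE, n = 2; limma, adjusted p = 4.9e-09), at least 16.3-fold against the floor. Probe set 1422173_at was 6.50 and 6.46 in jejunum and 4.36 to 4.81 elsewhere, an excess over ileum of 1.91 ± 0.12 (SE, n = 2; limma, adjusted p = 1.5e-06), at least 2.00-fold. By 1422174_at distal colon was also called above ileum, by 1.24, although all 4 of those arrays were below the floor. With dim values raised to the floor that difference was 0.01, and the other probe set gave -0.12.

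The exocrine pancreas and stomach lists, of 2 other organs where Pdx1 is known, also had their highest summed levels in jejunum. The exocrine pancreas list was higher in jejunum than ileum in 11 of 11 genes, with a median difference of 6.35, and its summed antilogged level was 27980 on the control jejunum array and 73810 on the yogurt array, against 732.5 to 6981 on the other 8 arrays. Between the 2 jejunum arrays all 11 were higher with yogurt, with a median log2 ratio of 1.48, while Pdx1 had ratios of -0.09 and -0.05 (probe sets 1422174_at and 1422173_at). The summed stomach list was 12710 and 8900 in jejunum (control and yogurt) and 587.0 to 780.7 on the other arrays. Its gastrokines Gkn2 (12.14) and Gkn1 (11.09) and the trefoil factor Tff1 (11.76) were all bright in jejunum, while Atp4a, a subunit of the parietal cell proton pump, was too dim to be tested. The stomach list was lower with yogurt in 7 of 7 genes measured in jejunum (median -0.46), Atp4a being below the floor on both arrays. Of 6 islet genes 2 were lower in jejunum than in ileum (background 3.0%), the hormone genes Gcg (-3.81) and Ppy (-1.09). Ins2, an insulin gene, had means of 6.92 in jejunum and 6.16 in ileum and was not called. Its 2 jejunum arrays were far apart, at 5.93 (control) and 7.91 (yogurt), a log2 ratio of 1.985. Of 5 islet genes measured in jejunum 2 were higher and 3 lower with yogurt (median -0.22). The part of stomach cells in the jejunal Pdx1 and Gata4 levels was not tested.

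In counts, 8 of 14 tested member probe sets (of 6 genes) were called between distal colon and ileum, 6 higher and 2 lower, against 8.66% of all probe sets tested. Between distal colon and jejunum 9 of 14 were called, 6 higher and 3 lower, against 11.7%. Between jejunum and ileum 3 of 14 were called, all higher and all of Gata4 or Pdx1, against 4.66%. All 5 Hox probe sets passed the filter through distal colon alone and both Pdx1 probe sets through jejunum alone, so their direction against the other tissues was set by the filter. The other higher call between distal colon and ileum was that of Pdx1 1422174_at, below the floor in both tissues. The excess of the member counts over the background is therefore built in and shows nothing about the members. Without the control or without the yogurt colon array the colon-ileum count was 3, because the Hox probe sets were then above the floor on 1 array and left the test, and the colon-jejunum count was 3 without the control and 6 without the yogurt colon array. The jejunum-ileum count was 2 without the control and 1 without the yogurt jejunum array, with 12 probe sets tested because both Pdx1 probe sets left the test in the same way.

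**Figure D2:**
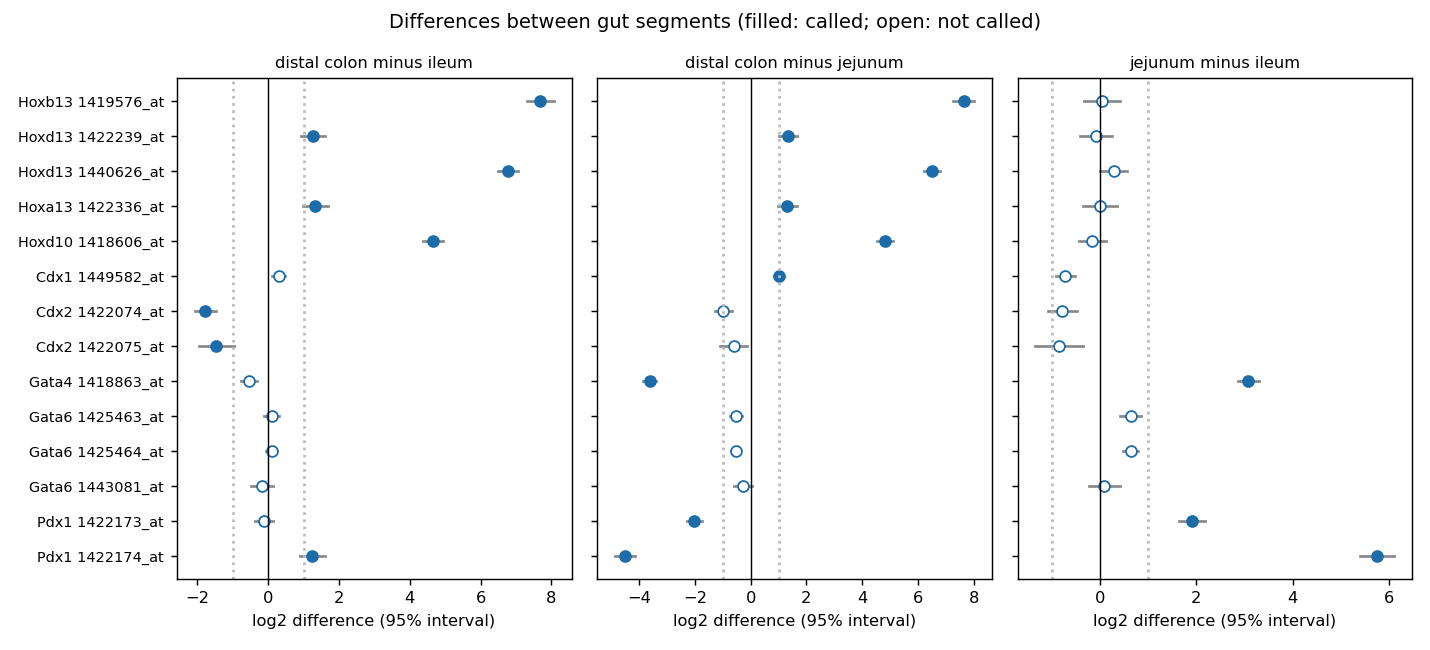
Log2 difference between gut segments (x axis, with 95% interval) for the 14 tested member probe sets (y axis), filled where called and open where not, dotted lines marking 2-fold. Hox probe sets lie to the right in both colon panels, Cdx2 to the left, and Gata4 and Pdx1 stand out between jejunum and ileum.

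The comparisons with liver and spleen called 50 of 98 tests on members. Distal colon differed from liver in 11 of 14 member probe sets (background 27.8%) and from spleen in 11 (29.6%). Jejunum differed from liver in 8 (25.8%) and from spleen in 8 (29.3%). Ileum differed from liver in 4 (27.2%) and from spleen in 5 (30.6%), shares close to the background. Liver differed from spleen in 3 (35.1%), all higher in liver. The ileum calls were of Cdx1, Cdx2 and Gata6. The jejunum calls were of these genes with Gata4 and Pdx1. The colon calls held all 4 Hox genes, and also Pdx1 1422174_at, which was below the floor in colon, liver and spleen. Gata4 1418863_at was called lower in distal colon than in liver (-1.02), but it was below the floor in colon and the bound was at least 1.43-fold, under the threshold. Pdx1 1422173_at, below the floor in both, had -0.33 and was not called.

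The other Hox genes of the clusters are given here for comparison. The array named 33 Hox genes with 1 symbol, of which 14 were in paralog groups 9 to 13. Apart from the 4 members, 10 of these 14 remained and 6 were tested. Between distal colon and ileum 3 of the 6 were higher and 1 lower (median 0.97), where 5.52% of all genes tested were higher and 4.28% lower. Against jejunum 5 of the 6 were higher and none lower (median 1.28; background 8.68% and 4.9%). Hoxa10, Hoxa11 and Hoxd9 passed the filter through distal colon alone, as the 4 members did, so their direction was set by it. The remaining 3 tested genes differed among themselves against ileum: Hoxa9 was higher, Hoxc9 lower, and Hoxb9 had -0.85 and was not called. Of 19 in groups 1 to 8, 12 were tested, and in distal colon none was higher and 6 were lower than in ileum (median -0.85). Against jejunum 3 of these 12 were higher in distal colon and none lower.

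Among non-members of the posterior groups, Hoxa10 was 7.87 in distal colon and 3.63 to 3.95 elsewhere, an excess over ileum of 4.13 ± 0.12 (SE, n = 2; limma, adjusted p = 3.8e-09). Hoxa11 was 1.62 and Hoxa9 1.05 higher in distal colon than ileum. Hoxc9 had -1.09 for distal colon minus ileum, and Hoxb9 gave -2.02 for jejunum minus ileum. Hoxd11 and Hoxd12, which lie between the bright Hoxd13 and Hoxd10, were below the floor on all arrays, at 5.07 and 4.75 in distal colon and 3.82 to 4.08 elsewhere, and were not tested. Each was read by a single probe set.

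Between jejunum and ileum, 6 of the 12 tested genes of groups 1 to 8 were lower in jejunum and none was higher (background 3.0% lower and 2.54% higher). Hoxc8 was 8.62 in ileum and 3.23 to 4.22 in the other tissues, with -5.38 for distal colon minus ileum and -5.29 for jejunum minus ileum (limma, adjusted p = 8.1e-10 and 2.2e-09). Hoxb6 was 7.86 in ileum, 5.46 in distal colon and 4.49 in jejunum. Hoxb5 had the same order at 7.42, 6.33 and 5.28. The gut segment with the highest level was not the same for all genes of groups 1 to 8. Hoxa7 was highest in distal colon (7.37, against 6.44 in ileum), Hoxd8 was 6.48 in distal colon and 6.39 in ileum, and Hoxa5 and Hoxb2 were highest in jejunum. Hoxc8 passed the filter through ileum alone.

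**Figure D3:**
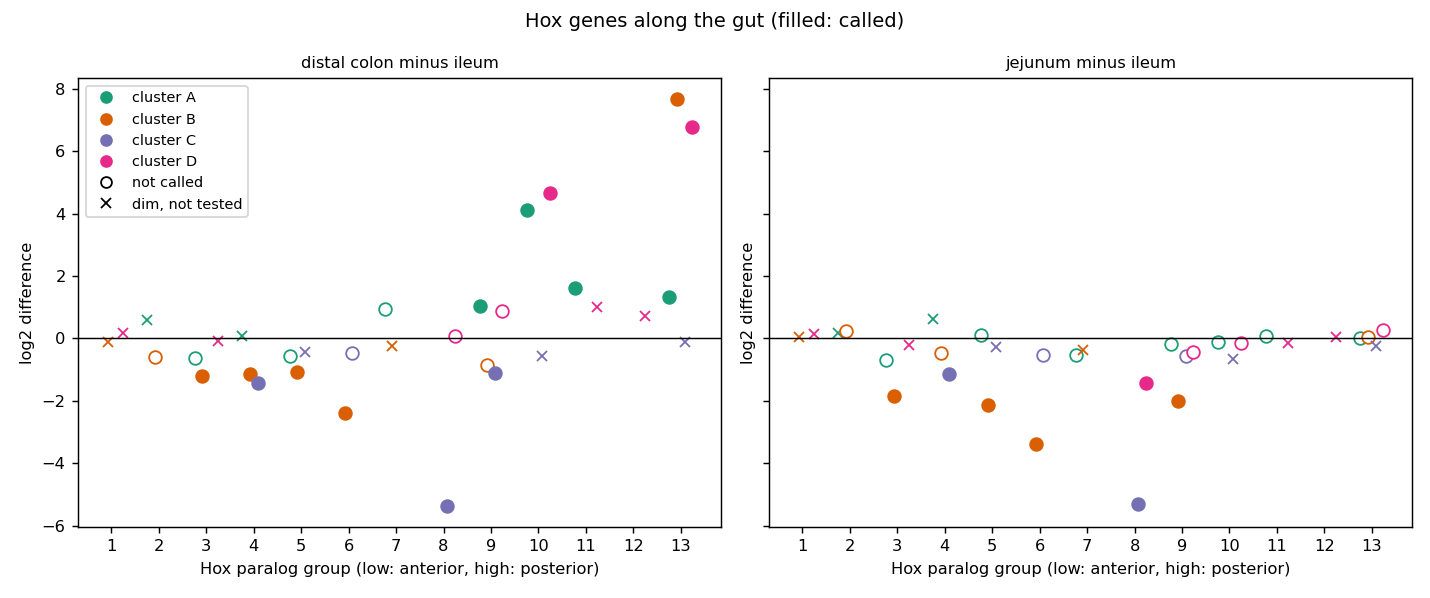
Log2 difference (y axis) of 33 Hox genes by paralog group (x axis), coloured by cluster, between distal colon and ileum (left) and between jejunum and ileum (right). Filled points were called, open points were tested and not called, and crosses were too dim to test. Called genes of groups 10 to 13 lie above 0 on the left, and called genes of groups 3 to 8 lie below 0 in both panels.

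Smooth muscle genes moved with the same comparison: 2 of 8 were higher in distal colon than ileum (median 0.72) and 6 of 8 higher than in jejunum (median 1.23), with a summed level of 25520 to 29770 in distal colon, 16410 to 18370 in ileum and 9487 to 10540 in jejunum. Of 6 fibroblast genes 4 were higher in distal colon than in jejunum (median 1.16), with a median of 0.58 against ileum. The part of these cells in the Hox differences was not tested. Of 12 tested genes listed as regulators of gut and spleen mesenchyme, 2 were higher in distal colon than in jejunum, the Hox cofactor gene Meis1 (1.32) and Tcf21 (1.08). In the same list 1 was lower, Zfpm1 (-3.14), which encodes a GATA-binding protein and is not taken here to describe mesenchyme. Against ileum the median of the 12 was 0.03. Over all genes tested, 5.52% were higher in distal colon than ileum, and 8.68% were higher and 4.9% lower than in jejunum.

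Of 20 tested endoderm and gut epithelium regulators outside the member set, 4 were higher and 3 lower in distal colon than ileum (background 5.52% higher and 4.28% lower). The highest were the pioneer factor genes Foxa2 (2.77) and Foxa1 (1.19), Hes1, a Notch target (1.27), and Ehf, an epithelial ETS factor (1.07). The lower ones were Gata5, another GATA gene of the endoderm (-3.87), Isx (-3.69), which also stands in the Cdx2-dependent list, and Hnf4g, a nuclear receptor of enterocytes (-2.35). Gata5 was 7.56 in jejunum and 8.47 in ileum and below the floor in distal colon, liver and spleen. Between jejunum and ileum 1 of the 20 was higher, Onecut2, a cut-homeobox factor, at 9.61 against 3.80, and 1 lower, Atoh1, the secretory lineage factor (-1.11). Of all genes tested 2.54% were higher and 3.0% lower in that comparison. Zfpm1, whose protein Fog1 binds GATA factors, was 8.75 in jejunum, 6.0 in ileum and 5.61 in distal colon, an excess of jejunum over ileum of 2.75 (limma, adjusted p = 5.7e-08).

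Genes most like each member were ranked by Pearson's r of log2 values over the 10 arrays, among 13658 probe sets that varied between tissues. These 10 arrays hold 5 tissues and 2 pools, so r reflects tissue means more than any other difference. Nearest to Hoxb13 were Fut9, a fucosyltransferase (0.998), Atp12a, the colonic proton-potassium pump (0.997), and Sfrp2, a secreted Wnt antagonist (0.997). Nearest to Hoxd13 were Csta1, Tgm3 and Hoxa10, and to Hoxd10 were Hoxa10 (0.999), Tgm3 and Fut9. Nearest to Hoxa13 were Timp4 (0.986), Tmprss13 and Sfrp2. Nearest to Cdx1 were Muc3, Phgr1 and Prss32, with 732 probe sets above 0.95. Nearest to Cdx2 were Fam3b (0.995), Cyp4f16 and Mep1b, a brush border protease subunit. Nearest to Gata4 were Slc11a2, an iron transporter (0.988), Ghrl, the gene of ghrelin, and Aqp5, a water channel. Nearest to Gata6 were Ndufab1 (0.996), Fam234a and Cask. Nearest to Pdx1 were Chad (0.992), Prdm16 and Pih1d1, the last of which was 9.47 in jejunum and 8.21 to 8.30 elsewhere. The 4 Hox members had r of 0.975 to 0.998 with each other, Cdx1 and Cdx2 0.956, and Gata4 and Pdx1 0.905, all over the same 10 arrays. The Hox members passed the filter through distal colon alone, so a high r among them was largely built in. Probe sets above 0.95 numbered 85 for Hoxb13, 84 for Hoxd13, 56 for Hoxa13 and 87 for Hoxd10.

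Diet was compared within a tissue as the log2 ratio of the yogurt over the control array, with values below the floor raised to it. There is 1 array per diet, so no ratio has a replicate check. Members were measured, with at least 1 array above the floor, in 10 cases in jejunum, 7 in ileum, 10 in distal colon, 4 in liver and 1 in spleen. None of these 32 reached 2-fold, where the share of all measured probe sets past 2-fold was 0.368% in jejunum, 0.121% in ileum, 0.338% in distal colon, 0.199% in liver and 0.287% in spleen.

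The widest diet ratio was that of Cdx2 in distal colon. Probe set 1422075_at was 8.13 on the control and 9.04 on the yogurt array, a log2 ratio of 0.91 or 1.88-fold, which 0.359% of all measured probe sets in distal colon reached or exceeded. Probe set 1422074_at was 6.30 and 6.70, a ratio of 0.41 or 1.32-fold, reached by 2.32%. At 1.5-fold, a threshold added after the data were seen, Cdx2 1422075_at was the only member case, against 1.07% of all measured probe sets in distal colon. In ileum the ratios of the same probe sets were -0.27 and -0.13, and in jejunum -0.06 and -0.05. Cdx1 had a ratio of -0.06 in distal colon.

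Of the 8 Cdx2-dependent genes, 7 were measured in distal colon and 6 of these were higher with yogurt. The median of the 7 was 0.22, against -0.009 over all measured probe sets in distal colon. Cdx1 was the exception, and Lct was the gene below the floor on both arrays. With 1 array per diet, whether these genes moved with Cdx2 was not tested. Muc2, the gel-forming mucin, had a ratio of 0.43. Isx was below the floor on the control array (5.33) and 7.40 on the yogurt array, so its ratio was at least 1.91. Of 3 ileal genes, Fabp6, the ileal bile acid binding protein, had a ratio of 0.58 (7.47 and 8.05). Slc10a2, the bile acid transporter, was 4.23 and 5.61, the latter just above the floor, for a ratio of at least 0.12, and Fgf15 was below the floor on both arrays. Of 4 colonic genes 2 were higher and 2 lower with yogurt (median 0.18). Of these Car1 had the largest ratio, 1.32 (11.39 and 12.71). Beside these, smooth muscle genes in distal colon were lower in 8 of 8 (median -0.26, range of summed level 29770 to 25520) and epithelial genes were higher in 4 of 8 (median 0.01). Adipocyte genes were higher in 3 of 3 measured (median 0.73). The part of tissue composition in the Cdx2 ratio was not tested.

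**Figure D4:**
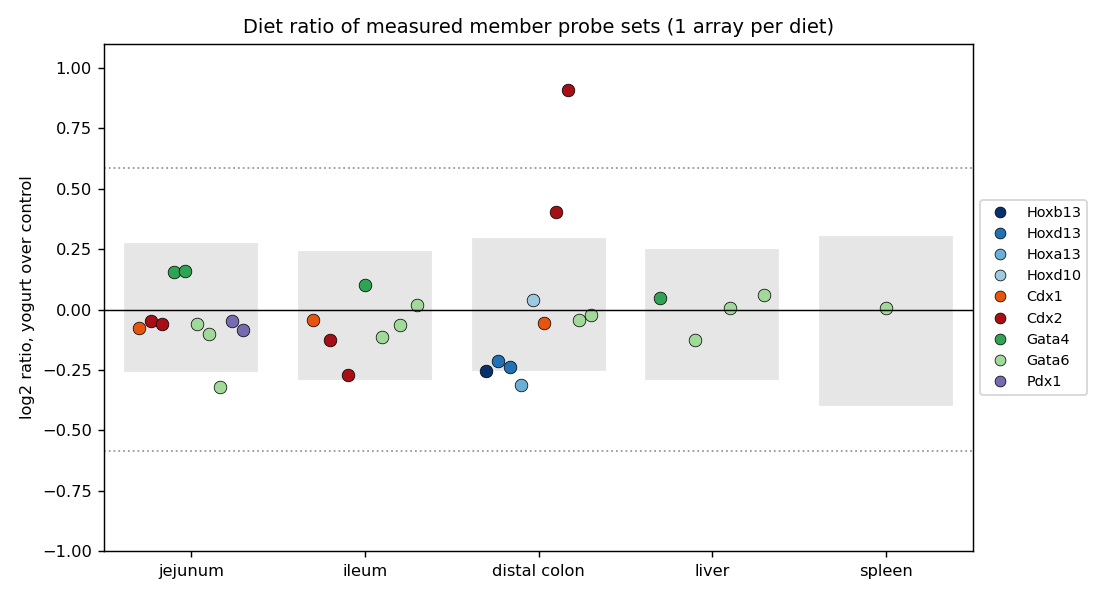
Log2 ratio of yogurt over control (y axis, 1 array per diet) of the 32 measured member cases by tissue (x axis), coloured by gene, with the range from the 5th to the 95th percentile of all measured probe sets in grey and dotted lines at 1.5-fold. Cdx2 in distal colon, at 0.91 and 0.41, lies above the grey range, and Hoxb13 and Hoxa13 in distal colon, at -0.25 and -0.31, and a dim Gata6 probe set in jejunum, at -0.32, lie below it.

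The posterior Hox members were slightly lower on the yogurt than on the control colon array in 4 of 5 probe sets. The log2 ratio was -0.25 for Hoxb13, -0.24 and -0.21 for Hoxd13, -0.31 for Hoxa13 and 0.04 for Hoxd10, where the 5th percentile of all measured probe sets was -0.25. Of the other 10 posterior Hox genes named on the array, 6 were measured in distal colon, 3 higher and 3 lower with yogurt (median -0.01). Of 10 measured Hox genes of groups 1 to 8, 8 were higher with yogurt and 2 lower in distal colon (median 0.14). Among these Hoxb3 had a ratio of 0.82 (6.31 and 7.13). Hoxb6, below the floor on the control array (4.86) and 6.06 on the yogurt array, had a ratio of at least 0.57. In jejunum the ratio was 0.15 for Gata4 1418863_at and -0.10 for Gata6 1425464_at.

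**Figure D5:**
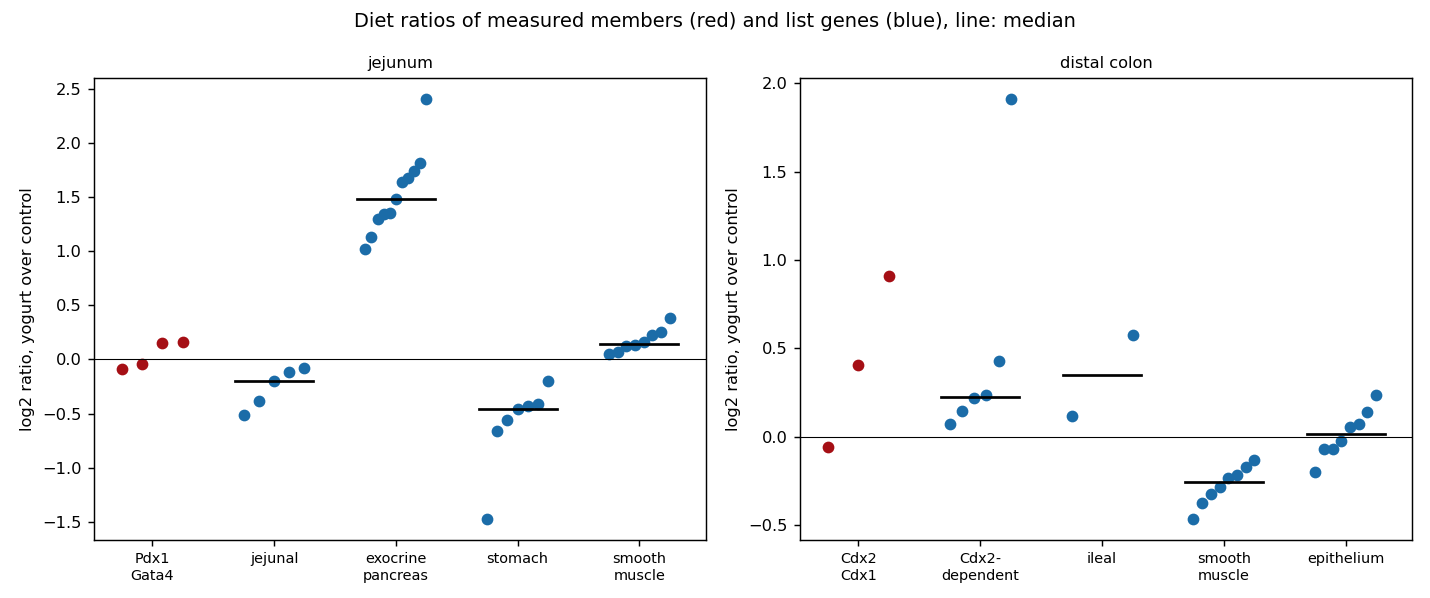
Log2 ratio of yogurt over control (y axis) of measured member probe sets (red) and measured list genes (blue, line at the median), with values below the floor raised to it, in jejunum (left) and distal colon (right). Exocrine pancreas genes reach 2.40 in jejunum while Pdx1 and Gata4 lie between -0.09 and 0.16, and Cdx2 and 6 of the Cdx2-dependent genes (Cdx1 shown with the members) lie above 0 in distal colon, where smooth muscle genes lie below.

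A shift with diet common to the 5 tissues was tested as the diet term of the limma fit, whose p-values reflect how the diet ratio varied from tissue to tissue in the same 2 groups of mice. Of the 14 member probe sets 0 passed an adjusted p of 0.05, and 0 had an unadjusted p under 0.05, against 0.138% (37) of all probe sets by adjusted p and 10.2% (2736) by unadjusted p. The Hox and Pdx1 probe sets were measured in 1 tissue each, and the fit used unfloored values. For them the test could hardly find a common shift, so the count of 0 says little about these genes. Cdx2 1422075_at had the largest common difference of the members, 0.23 ± 0.14 (SE over 10 arrays; limma, adjusted p = 0.61), and of the 3 tissues where it was measured it was higher with yogurt in 1. Its unfloored ratios in liver (0.15) and spleen (0.41), where it was below the floor on both arrays, also entered this estimate. Gata4 1418863_at had a common difference of 0.09 ± 0.06 (limma, adjusted p = 0.69) and was higher with yogurt in the 3 tissues where it was measured. With 1 pool per diet, these tests say nothing about the spread between mice.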

How the data were processed

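Pooled RNA of 5 tissues and 2 diets was measured on 10 expression arrays (9 control and 10 yogurt-fed mice per pool, per the labels' protocols). The authors deposited log2 expression values for 45101 probe sets per array. MAS5 and affy are named in the submitters' processing notes without version or role, and the method of summarising probes was not given in the sources used here. Precision is limited by the number of arrays. No further scaling was applied. The 64 array controls were left out. Platform annotation gave 1 symbol to 34945 probe sets, several to 932 (not used) and none to 9160. Of the first, 34741 were matched by Entrez number to RefSeq and 0 symbols changed.

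Probe sets above the floor (the array's 50th percentile) on at least 2 arrays, 26905 in all, were fitted with limma 3.58.1 in R 4.3.3 (lmFit, eBayes with trend) on unfloored values with tissue and diet as terms and 4 residual degrees of freedom. The fit was tested on simulated data. Fold bounds set dim values at the floor. Named were all member probe sets, the 3 genes most like each member, and up to 4 leading genes of each of 20 lists (182 genes, 158 matched), each read by its brightest probe set; some further list genes were named after their values were seen. The members and lists were chosen with earlier results of these data known, so no count of them is independent evidence. Alternatives were flooring, other filters, quantile normalization, no diet term, no variance trend, gut arrays only, a pseudocount, centring, and leaving out each array.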

Additional observations from a re-analysis of the deposited data

Results flagged for a closer look

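The diet ratio of Cdx2 probe set 1422075_at differed between gut segments. It was 0.91 (log2, yogurt over control) in distal colon and -0.27 in ileum, a difference of 1.18, so the single pair of arrays in one segment moved up and that in the other moved down. Probe set 1422074_at gave 0.41 and -0.13. With 1 array per diet in each tissue this difference was not tested.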

How the results depend on the processing

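The 20 member calls between gut segments were refitted 324 times under the alternatives: 315 refits kept direction and call, 9 kept the direction and lost the call, and 0 reversed. The 324 leave out every refit in which the probe set no longer passed the filter. Those were the Hox calls without either colon array, the Pdx1 calls without either jejunum array, and calls of dim probe sets under the higher floor. The share kept is therefore no measure of how those calls hold. The lost calls were those of Hoxd13 1422239_at, Hoxa13, Pdx1 1422174_at (colon against ileum) and Pdx1 1422173_at (colon against jejunum, -0.99) with flooring, and Cdx1 between colon and jejunum as given above. With dim values raised to the floor, 5 member probe sets were called between distal colon and ileum in place of 8, and 7 of all probe sets had a common diet shift in place of 37 (17 without a variance trend). Leaving out 1 array at a time gave 3 to 8 member calls between colon and ileum, 3 to 9 between colon and jejunum, 1 to 4 between jejunum and ileum, 40 to 50 in pairs with liver or spleen, and 0 to 0 for the diet term. A tissue left with 1 array was assumed to vary like the others. Over all probe sets the ranges were 2232 to 2374, 2926 to 3317 and 1172 to 1281 for the gut comparisons and 15 to 33 for diet. The common diet count was 15 to 24 without any 1 array of jejunum, ileum, distal colon or liver. Without the replicate block (the diet term, which pairs arrays from the same pools), 8, 9 and 3 members were called in the gut comparisons, as with it. No diet shift exists in that fit. At 1.5-fold, added after the data were seen, 1 member diet ratio was counted in place of 0. Values near the floor, such as Hoxa13 in distal colon, limit how firmly a fold can be given.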
